A study of Oryctolagus cuniculus with 57 samples.

Results

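Ileal gene expression at day 49 was compared between rabbits raised without access to feces in the nest (NF) and rabbits given feces from antibiotic-treated does (FFab). The comparison took every array that the labels place in these groups at day 49, 9 NF and 9 FFab rabbits, 18 of the 57 arrays of the series. All were young commercial hybrid rabbits sampled at day 49, after weaning at day 35, with 1 array per rabbit and RNA from whole ileal tissue. In NF nests, maternal feces had been taken away. In FFab nests they had been replaced by feces of unrelated does that received tetracycline and tiamulin, and in the third group (FF), used here only as a reference, by feces of unrelated does without antibiotics. Neither NF nor FFab kits were given feces of untreated does, and the comparison asks whether feces from antibiotic-treated does left an ileum unlike that of kits given none. Treatment had been applied by nest, and litter and sex could not be entered in the test, so rabbits were treated as independent and p-values could be too small if littermates were sampled. Rabbits are called by the name in their label (lap170 and so on).

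Young rabbits eat fecal pellets left by the doe, which seeds their gut with bacteria. Type I and type III interferons switch on antiviral genes such as those of the IFIT, OAS and MX families. Interferon gamma raises the machinery that loads peptides on class I molecules in nearly every cell and on class II molecules in antigen-presenting cells. The lists below do not tell these interferons apart. Macrophages of the gut wall clear bacteria and dead cells and carry class II molecules themselves. In whole tissue, fewer cells of a type and less RNA per cell cannot be told apart.

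The labelled tissue was checked first. The ileum is marked by FABP6, which carries bile acids inside the enterocyte, and SLC10A2, which takes them up from the gut lumen. FABP6 stood between 19.12 and 19.24 (log2 level) in 15 of the 18 rabbits, and between 7.88 and 15.48 in the other 3, which were NF rabbit lap206 and FFab rabbits lap173 and lap185. SLC10A2 ran from 11.94 to 13.20 in those 15 rabbits and from 2.10 to 3.20 in the same 3, where it was not above background. All 9 FF rabbits of day 49 had SLC10A2 above background, at 12.51 or higher. Conversely, genes of fat absorption were high in the 3 rabbits. FABP1, a fatty acid carrier of the upper small intestine, was 18.55 to 18.61 in them against 11.74 to 15.17 in the others, and MOGAT2, an enzyme of triglyceride resynthesis, was 9.96 to 11.69 against 3.63 to 7.34. FABP1 and MOGAT2 were picked for display after their values had been seen. Quantile normalization gives every array the same set of values. The narrow ranges of FABP6 and FABP1 at high level therefore follow rank and do not show equal amounts of RNA. The whole fat absorption list (16 of 23 genes measured) averaged 13.06, 13.10 and 13.42 in FFab rabbit lap185, FFab rabbit lap173 and NF rabbit lap206, and between 10.89 and 11.89 in the other 15. The arrays of these 3 rabbits thus lack a defining gene of their labelled tissue, and differences without them are given below for part of the lists and genes.

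**Figure D1:**
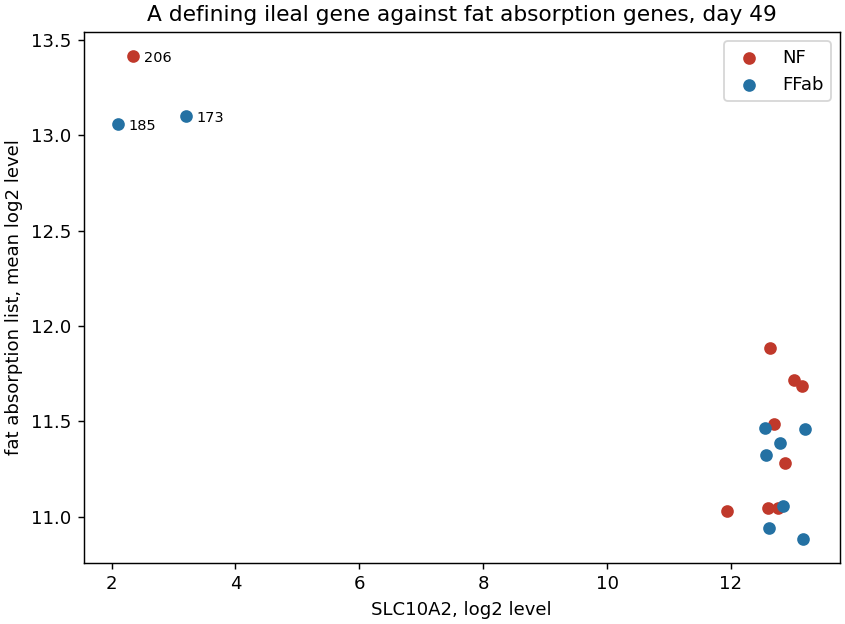
Level of SLC10A2 (x axis, log2) against the mean level of 16 fat absorption genes (y axis, log2) in 9 NF and 9 FFab rabbits at day 49, 1 point per rabbit. NF rabbit lap206 and FFab rabbits lap173 and lap185 stand apart with SLC10A2 at 2.10 to 3.20 and fat absorption genes at 13.06 or higher.

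Other facts of the arrays bear on the comparison. Each of the 9 slides held 1 NF and 1 FFab array of day 49, so that slide and treatment were not confounded. Between 69.5% and 84.4% of probes stood well above background on the 18 arrays. FFab rabbit lap201 had the lowest 75th percentile of raw log2 signal, 9.61, against 9.83 to 10.67 on the others. After normalization it was the lowest FFab rabbit for 16.9% of all genes and the highest for 23.4%. It had the highest mean of the smooth muscle list (14 of 18 genes measured, 12.15 against 10.42 to 11.93 in the other FFab and 10.71 to 11.55 in the NF rabbits) and was the highest FFab rabbit in 12 of its 14 genes. It also had the lowest mean of the T cell list among the 18 rabbits, 6.33 against 6.70 to 7.64, over 16 of 22 genes measured.

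Each gene was read by 1 probe of 60 bases. The probes shown are those of 3 interferon response genes with large differences, of 1 gene each from the class I, class II and macrophage lists, and of the 2 ileal genes just described. Letters are in lower case throughout because no part of a probe is singled out.
RSAD2: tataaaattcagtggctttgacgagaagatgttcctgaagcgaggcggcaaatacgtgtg
IFIT2: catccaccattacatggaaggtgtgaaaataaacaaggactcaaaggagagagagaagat
IRF7: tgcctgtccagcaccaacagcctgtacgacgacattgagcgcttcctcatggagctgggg
TAP1: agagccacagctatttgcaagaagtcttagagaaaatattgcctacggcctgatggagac
RLA-DR-ALPHA: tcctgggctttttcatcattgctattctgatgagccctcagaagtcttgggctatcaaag
ITGAX: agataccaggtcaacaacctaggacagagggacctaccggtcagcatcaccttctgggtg
FABP6: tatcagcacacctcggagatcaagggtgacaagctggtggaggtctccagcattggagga
SLC10A2: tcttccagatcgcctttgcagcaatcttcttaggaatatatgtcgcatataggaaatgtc
In the array's design (build oryCun2) the probe of TAP1 lies at chr12:23363252-23363311 on the minus strand and that of RLA-DR-ALPHA at chr12:23070407-23070466 on the plus strand, both in the rabbit MHC. The probe of FABP6 is spread over chr3:41633334-41636530 (plus strand) and that of SLC10A2 over chr8:104682623-104685738 (minus strand), each longer than the probe. The other 4 have no position in the design.

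Across all genes no difference between NF and FFab passed the test. Of 7974 genes measured, 0 reached an adjusted p under 0.05 (limma, Benjamini-Hochberg), with or without a minimum log2 difference of 0.5, so percent called was 0. The smallest adjusted p was 0.9997. At an unadjusted p under 0.05 there were 147 genes (1.84% of those tested), below the share of 0.05 expected if no gene differed. Of these, 88 (1.1%) were higher and 59 (0.74%) lower in NF. This lean towards NF rested on single rabbits. Without NF rabbit lap170 there were 53 higher and 58 lower, and without NF rabbit lap205 there were 54 of each. The median difference over all genes was 0.00 on the log2 scale, the quartiles lay at -0.08 and 0.08, and the median standard error was 0.15. By mean alone, 51.3% of the genes were higher in NF. A difference of over 0.5 in favour of NF was seen for 131 genes (1.64%) and one in favour of FFab for 76 genes (0.953%). Nor did any gene pass for a change of the NF minus FFab difference between day 35 and day 49 (0 of 7974 with limma, 73 or 0.915% at an unadjusted p under 0.05).

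The genes of smallest unadjusted p are described as the ends of a list in which nothing passed. Genes with only a LOC number for a name were tested but left out of this choice. On the side of NF they included genes of mitochondria and of nucleotide metabolism. HIGD1A, a mitochondrial protein induced by low oxygen, ranged from 12.47 to 13.47 (median 12.87) in NF and from 12.11 to 12.83 (median 12.33) in FFab, a log2 difference of 0.47 ± 0.15 (SE, adjusted p = 0.9997). NF was higher on 8 of the 9 slides, where 8.65% of all genes were higher on 7 or more, and the ranges overlapped. NT5C3A, which removes phosphate from pyrimidine nucleotides, differed by 0.51 ± 0.18, DCTD, a deaminase of the same pathway, by 0.28 ± 0.10 (0.11 to 0.28 over its 5 probes), and MRPL51, a protein of the mitochondrial ribosome, by 0.19 ± 0.07. NAMPT, which makes the precursor of NAD, differed by 0.43 ± 0.17. Here NF rabbit lap170 stood at 11.09 above the next NF rabbit at 10.14, and without it the difference was 0.29. CH25H, which forms the oxysterol 25-hydroxycholesterol and is known as an interferon-induced gene, ran from 7.78 to 9.11 in NF and from 7.39 to 8.40 in FFab (0.52 ± 0.17). PSME3, a proteasome activator, was 0.21 ± 0.07 higher by mean and higher in NF on 9 of 9 slides. BAMBI, a decoy receptor of TGF-beta signals, differed by 0.46 ± 0.17, and by 0.17 without the 3 rabbits lacking SLC10A2. TBL2 differed by 0.73 ± 0.28 and was above background in 9 NF and 7 FFab rabbits.

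The widest of these differences belonged to CIMIP4, a protein of ciliary microtubules. It ran from 6.69 to 10.77 (median 10.07) in NF and from 4.64 to 11.12 (median 6.75) in FFab, a difference of 2.44 ± 0.84 (limma, adjusted p = 0.9997). Its values were spread over several log2 units within each group, the highest of all 18 was an FFab rabbit, and NF rabbit lap188 stood apart below the other NF rabbits.

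On the side of FFab, LRP3, a receptor of the LDL receptor family, was the 1 gene of 7974 (0.0125%) whose ranges did not overlap. NF rabbits lay between 8.33 and 8.40 and FFab rabbits between 8.41 and 8.76, which gave -0.19 ± 0.06 (adjusted p = 0.9997). NT5E, the ectoenzyme CD73 that makes adenosine from AMP, ran from 7.64 to 10.60 (median 8.71) in NF and from 8.61 to 10.63 (median 9.94) in FFab. Its difference was -1.02 ± 0.35, NF was lower on 8 of the 9 slides, and the highest NF rabbit and the 2 highest FFab rabbits were those without SLC10A2. Without these 3 rabbits the difference was -1.03. AOX1, an aldehyde oxidase of drug metabolism, differed by -0.73 ± 0.27, and HPD, an enzyme of tyrosine breakdown, by -0.62 ± 0.22. SLN, a small protein that brakes calcium uptake in muscle, differed by -0.63 ± 0.24 (its 4 probes gave -0.78 to -0.39) and LRP2BP by -0.83 ± 0.28, the latter by -0.50 without the 3 rabbits. NCAM2, a neural adhesion molecule, differed by -0.51 ± 0.17 but was above background in 5 of 9 NF rabbits. FNTA, a subunit of protein farnesyltransferase, NEURL1, a ubiquitin ligase, and a probe annotated to the opsin OPN1MW differed by -0.23, -0.35 and -0.35. NEURL1 was -0.20 without FFab rabbit lap202.

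**Figure D2:**
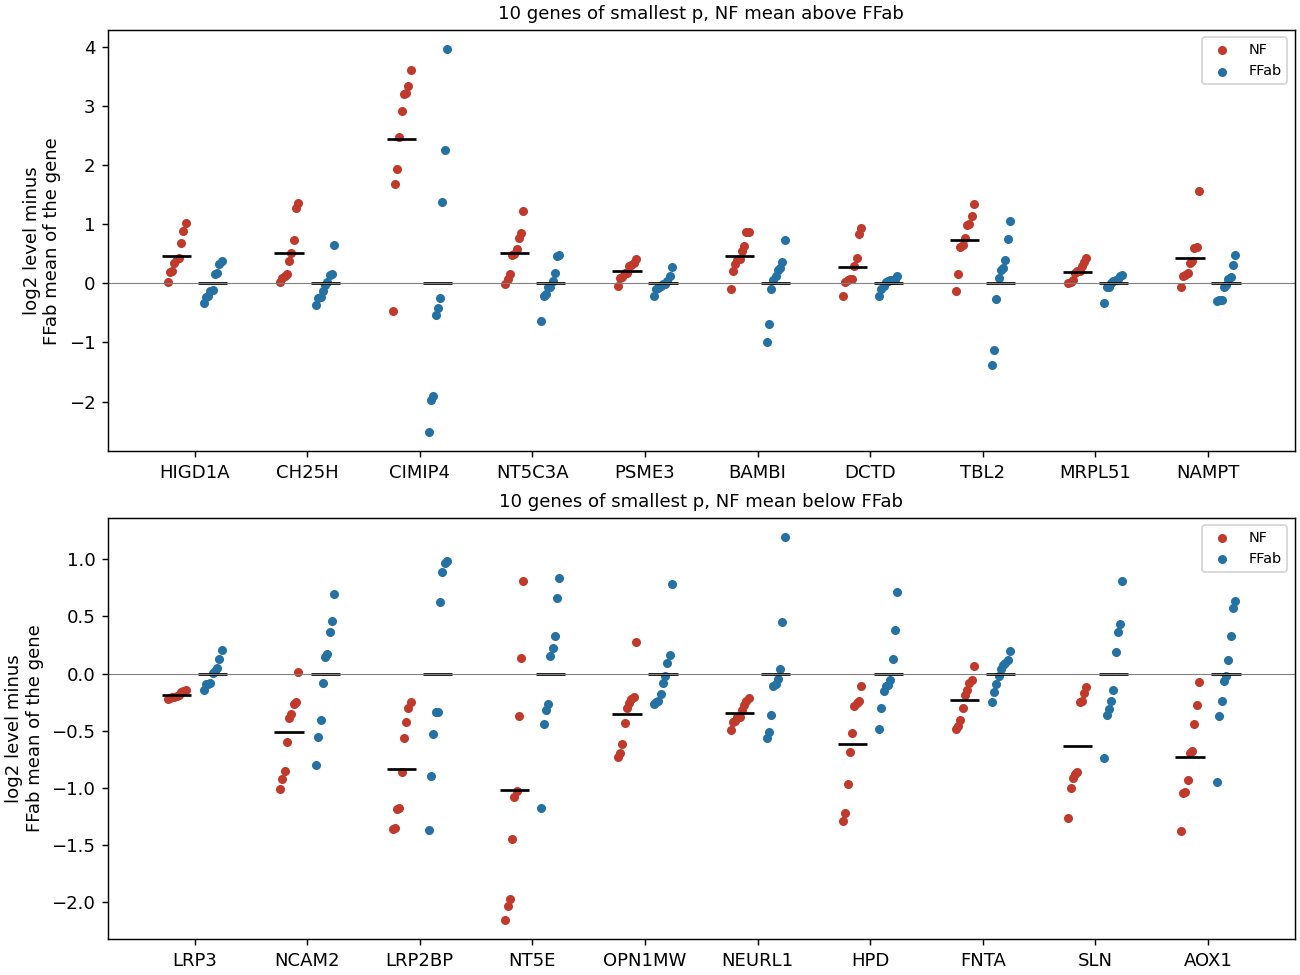
Log2 level minus the FFab mean of each gene (y axis) in 9 NF and 9 FFab rabbits at day 49. The x axis holds the 10 genes of smallest unadjusted p in each direction, leaving out genes with only a LOC number. There is 1 point per rabbit, with black bars at group means. Apart from LRP3, whose NF points lie just below the FFab points, the groups overlap in every gene shown.

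The interferon response list had the largest difference between group means of the 4 immune lists examined, and leaving out a single NF rabbit lowered it most. The mean log2 level of its 37 measured genes (of 59 listed) was 9.82 ± 0.90 (SD, n = 9) in NF and 9.12 ± 0.64 (n = 9) in FFab. In NF the lowest rabbit stood at 9.29, the median at 9.39 and the highest at 12.04. In FFab they stood at 7.99, 9.04 and 10.12. The difference was 0.70 ± 0.37 (SE), a ratio of 1.62, and the medians differed by 0.36. The highest NF value was that of rabbit lap170, followed by rabbit lap205 at 10.36, whereas the other 7 NF rabbits fell between 9.29 and 9.69. FFab rabbits lap185 (10.12) and lap202 (9.90) stood above all of these 7, which thus lay within the FFab range. At the lower end, 6 of the FFab rabbits lay below the lowest NF rabbit.

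Every one of the 37 genes had a higher mean in NF, against 51.3% of all genes, with a median gene difference of 0.63 against 0.00 over all genes. None passed the test, and 4 (IFIT2, XAF1, IRF7 and PARP9) had an unadjusted p under 0.05, where 1.1% of all genes were higher in NF. All were measured in the same 18 RNA samples, so the count is not one of independent genes. NF rabbit lap170 was the highest of the 9 NF rabbits in 35 of 37 genes (94.6%), against 15.8% of all genes, and the highest of all 18 in the same number. FFab rabbit lap201 was the lowest FFab rabbit in 22 genes, and FFab rabbit lap185 the highest in 23 (15.6% of all genes).

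**Figure D3:**
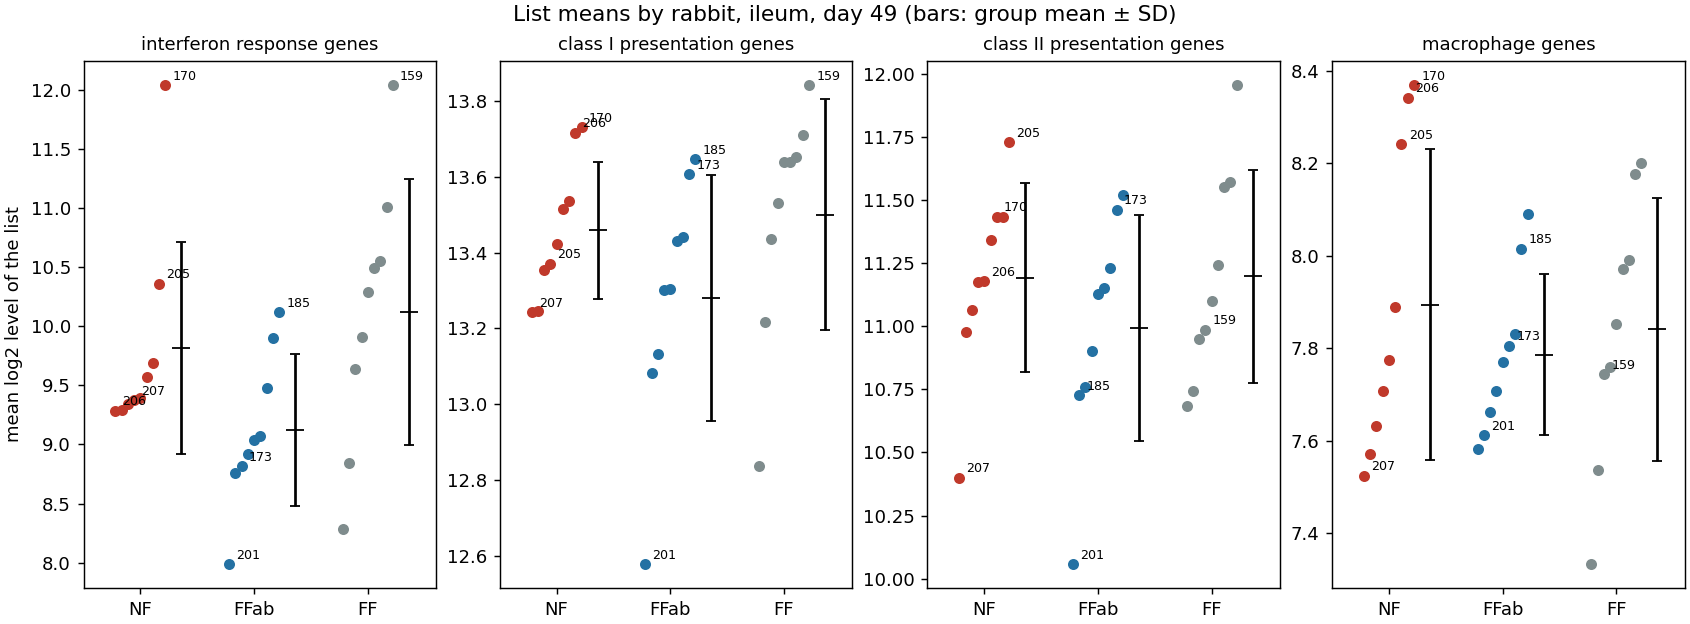
Mean log2 level of the genes of 4 lists (y axis, a separate scale in each panel) in NF, FFab and FF rabbits at day 49, 1 point per rabbit, with the group mean ± SD beside it (n = 9 each). Some of the rabbits named in the text, and the highest FF rabbit on the interferon list, are numbered. NF rabbit lap170 stands at 12.04 on the interferon list and FFab rabbit lap201 at the bottom of the class I and class II lists.

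Leaving out 1 rabbit at a time put the interferon difference between 0.42, without NF rabbit lap170, and 0.82, without FFab rabbit lap185. Without FFab rabbit lap201 it was 0.55. Without both rabbits at the ends, lap170 and lap201, it was 0.28 (a ratio of 1.21), and 33 of the 37 genes were still higher in NF. These were the highest NF and the lowest FFab rabbit on this list, so leaving them out could only lower the difference. Dropping the highest and the lowest rabbit of each group gave 0.43. Without the 3 rabbits lacking SLC10A2, of which FFab rabbit lap185 was the highest of its group on this list, the difference was 0.86. Within slides, NF was higher on 6 of 9, with differences from -0.83 to 2.97 and a median of 0.81. The slide of 2.97 held NF rabbit lap170.

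**Figure D4:**
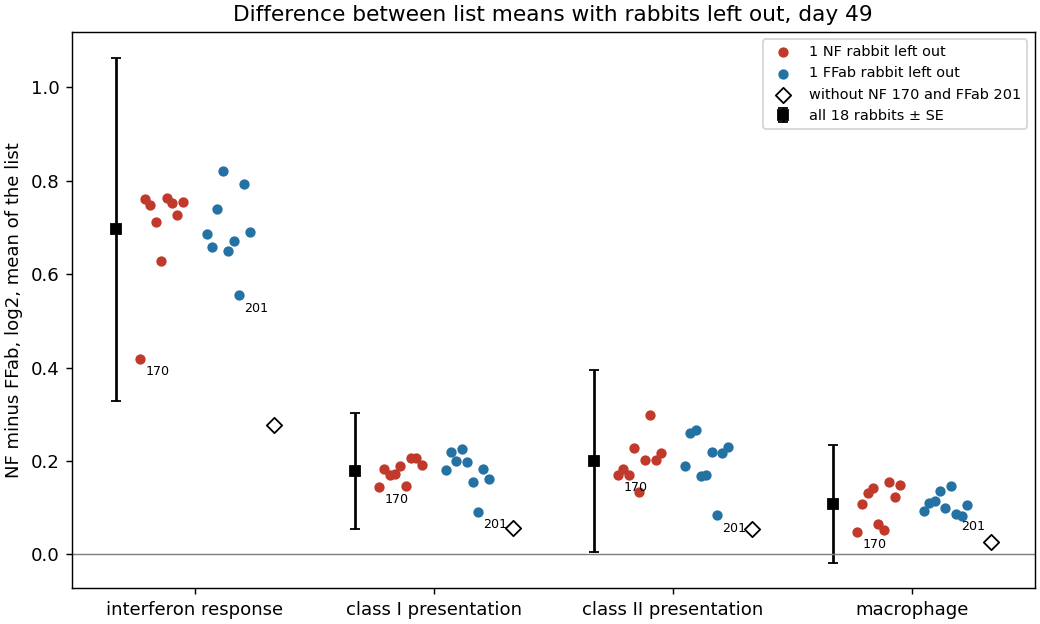
Difference between the NF and FFab means of each list at day 49 (y axis, log2) for all 18 rabbits (squares, ± SE), with 1 rabbit left out in turn (points coloured by its group) and without NF rabbit lap170 and FFab rabbit lap201 (open diamonds). The interferon difference falls from 0.70 to 0.42 without NF rabbit lap170 and to 0.28 without both. On that list they are the highest NF and the lowest FFab rabbit, so leaving them out can only lower it.

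Among the effector genes, RSAD2 (viperin), which stops viral RNA synthesis, ran from 8.40 to 14.03 (median 10.50) in NF and from 5.03 to 11.06 (median 9.04) in FFab. Its difference was 1.82 ± 0.97 (limma, adjusted p = 0.9997), and 1.13 without rabbits lap170 and lap201. IFIT2, which binds viral RNA, was 9.85 in NF rabbit lap170 and 3.30 to 5.92 in the other NF rabbits, against 2.21 to 4.38 in FFab. It was above background in 6 NF and 3 FFab rabbits, so that 6 of the FFab values could not be told from background. The difference of 1.55 ± 0.67 fell to 0.95 without rabbit lap170. XAF1, a pro-apoptotic factor, ran from 8.77 to 12.54 in NF and from 6.12 to 10.24 in FFab (1.36 ± 0.58), and its 3 probes gave 1.27 to 1.36. For XAF1, FFab rabbits lap185 and lap202 lay among the NF rabbits and the other 7 FFab rabbits lay below all of them. DDX60 (1.18 ± 0.72), a helicase cofactor, and USP18 (1.22 ± 0.66), a brake on the interferon receptor, were also among the members with the largest differences. DDX60 was 0.74 without FFab rabbit lap201 and 1.77 without the 3 rabbits lacking SLC10A2. For USP18 these differences were 0.86 and 1.80. ISG15, a ubiquitin-like modifier, was 17.12 in rabbit lap170 and 12.91 to 14.91 in the other NF rabbits, against 10.81 to 15.14 in FFab (1.01 ± 0.62). Without lap170 its difference was 0.59, and without lap170 and lap201 it was 0.34. Without the 3 rabbits lacking SLC10A2 the difference of ISG15 was 1.39. MX1, a GTPase that traps viral particles, differed by 0.44 ± 0.50 and by 0.04 without rabbit lap170.

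Among the factors that transmit or amplify the signal, IRF7, which drives interferon alpha, ran from 14.08 to 18.21 (median 15.43) in NF and from 13.55 to 16.62 (median 14.50) in FFab. The difference was 1.11 ± 0.52, and NF was higher on 7 of 9 slides. It was 0.79 without rabbit lap170 and 1.49 without the 3 rabbits lacking SLC10A2. The sensor RIGI differed by 0.82 and IFIH1 by 0.35. The chemokines CXCL10 and CXCL11, which call in T cells, differed by 0.94 and 0.80, and by 0.59 and 0.25 without rabbit lap170. In 10 of the 37 genes the difference without that rabbit was under 50% of the full one.

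**Figure D5:**
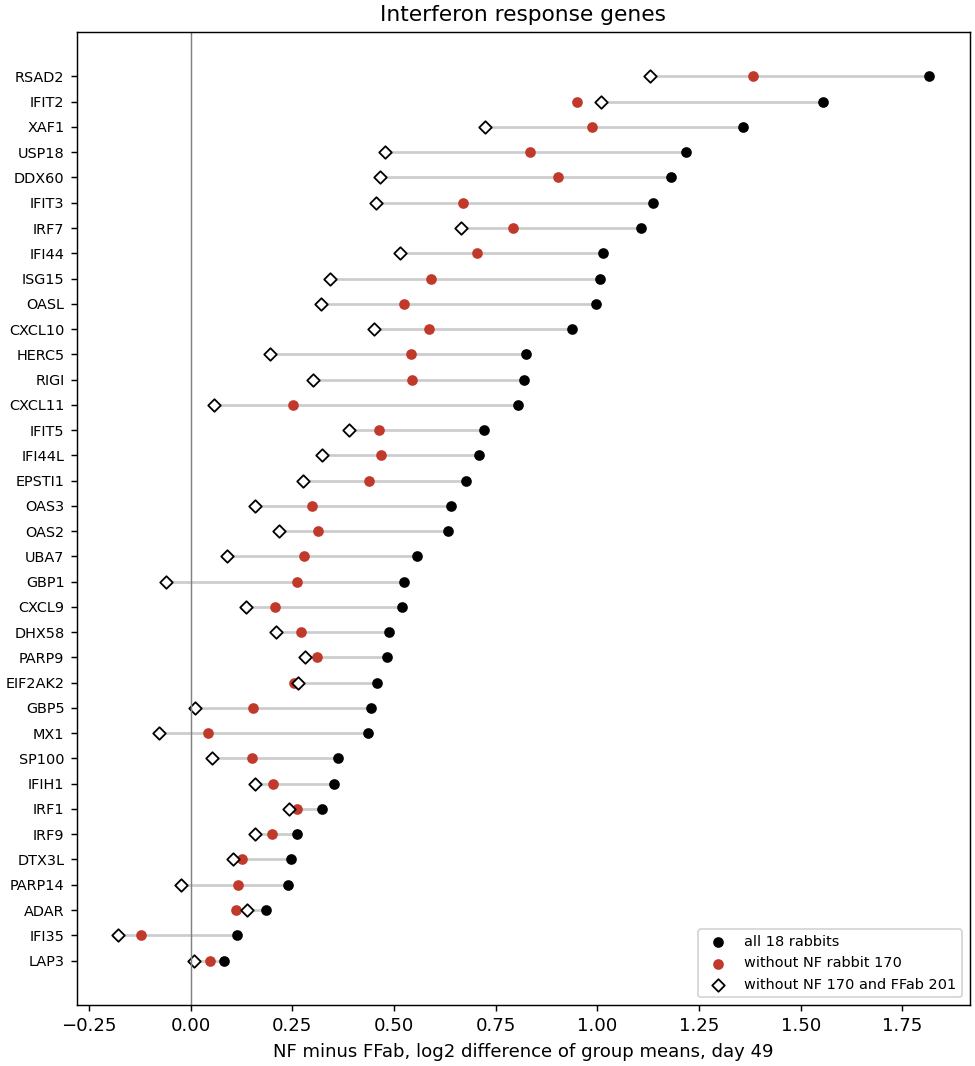
NF minus FFab difference (x axis, log2) for single interferon response genes (y axis) at day 49, over all 18 rabbits (black), without NF rabbit lap170 (red) and without NF rabbit lap170 and FFab rabbit lap201 (open diamonds). All black points lie above 0, and 1 red point and 4 diamonds lie below it.

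Beside these levels, FF rabbits of day 49 had a list mean of 10.12 ± 1.12 (SD, n = 9), with a range from 8.29 to 12.04, so that the highest FF rabbit matched NF rabbit lap170. At day 35 the kept NF and the FFab rabbits stood at 8.59 ± 0.75 (n = 9) and 8.57 ± 0.63 (n = 10), a difference of 0.02 ± 0.32.

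The class I presentation list differed little between the groups. Leaving out a low FFab rabbit lowered its difference more than leaving out any NF rabbit. The mean of 16 measured genes (of 23) was 13.46 ± 0.18 (SD, n = 9) in NF and 13.28 ± 0.32 (n = 9) in FFab. The difference was 0.18 ± 0.12 (SE), and the medians differed by 0.12. NF rabbits ran from 13.24 to 13.73 (median 13.42). FFab rabbits ran from 12.58 (rabbit lap201) to 13.65 (median 13.30), with the next lowest at 13.08. Of the 16 genes 15 were higher in NF by mean and 14 by median. The median gene difference was 0.13, and none had an unadjusted p under 0.05. FFab rabbit lap201 was the lowest FFab rabbit in 12 of the 16 genes. Without it the difference was 0.09, whereas leaving out NF rabbit lap170 gave 0.15. Without both it was 0.06, and without the 3 rabbits lacking SLC10A2 it was 0.25. NF was higher on 5 of 9 slides, with a median within-slide difference of 0.05. The largest, 1.14, was that of the slide with NF rabbit lap206 and FFab rabbit lap201.

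Among the members, TAP1, a subunit of the peptide transporter, ran from 10.64 to 12.16 in NF and from 9.57 to 11.48 in FFab (0.49 ± 0.33, adjusted p = 0.9997). The immunoproteasome subunits PSMB9 and PSMB8, which cut the peptides, differed by 0.39 ± 0.33 and 0.26 ± 0.30. In rabbit lap201 PSMB9 stood at 13.92 with the next FFab rabbit at 15.42, and without rabbit lap201 these differences were 0.18 and 0.07. Without the 3 rabbits lacking SLC10A2 they were 0.51 and 0.42. B2M, the light chain of class I, differed by 0.10 ± 0.19, and by -0.01 without rabbit lap201. Of the heavy chains, a class I-like gene named from the array's description (RLA-I-like) differed by 0.51 ± 0.35, RLA-A3 by 0.32 ± 0.26 and RLA-A2 by 0.13. Without rabbit lap201 these were 0.32, 0.19 and 0.03. Class I heavy chain genes are near-identical copies and their probes may read each other, so that these 3 values are not separate evidence.

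The class II presentation list also differed little. The mean of 10 measured genes (of 31) was 11.19 ± 0.37 (SD, n = 9) in NF and 10.99 ± 0.45 (n = 9) in FFab, a difference of 0.20 ± 0.19 (SE), and the medians differed by 0.05. NF rabbits ran from 10.40 (rabbit lap207) to 11.73 (rabbit lap205), with a median of 11.18. FFab rabbits ran from 10.06 (rabbit lap201) to 11.52, with a median of 11.13. Rabbit lap205 was the highest NF rabbit in 9 of the 10 genes (13.3% of all genes) and rabbit lap207 the lowest in all 10 (9.34% of all genes), and rabbit lap201 was the lowest FFab rabbit in all 10. By mean, 9 of the 10 genes were higher in NF, with a median gene difference of 0.23, and none had an unadjusted p under 0.05. Without FFab rabbit lap201 the difference was 0.08. It was 0.13 without NF rabbit lap205 and 0.30 without NF rabbit lap207, so that high and low NF rabbits offset each other. NF rabbit lap170, the top of the interferon list, was not the top here, and without it the difference was 0.17. NF was higher on 5 of 9 slides.

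RLA-DPA-like, RLA-DRB-like and RLA-DQA, chains of the class II molecules named from the array's description, differed by 0.36 ± 0.24, 0.34 ± 0.22 and 0.34 ± 0.22 (limma, adjusted p = 0.9997 for each), and can share signal with near-identical copies. Without FFab rabbit lap201 they were 0.18, 0.18 and 0.25. CD74, the chaperone of class II chains, ran from 10.59 to 11.74 in NF and from 10.42 to 11.51 in FFab (0.17 ± 0.19). RLA-DMA, which exchanges the peptides, differed by 0.25 ± 0.19. Without lap201 the differences of CD74 and RLA-DMA were 0.09 and 0.16. CTSS, the protease that trims the class II chaperone, differed by 0.25 ± 0.23. Rabbit lap170 stood alone for CTSS at 14.30 with the next NF rabbit at 13.54, and without rabbits lap170 and lap201 the sign turned (-0.05). Without the 3 rabbits lacking SLC10A2 the difference of CTSS was 0.47. CIITA, the switch of class II genes, was not among the genes measured here.

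The macrophage list was nearly level. The mean of 21 measured genes (of 40) was 7.89 ± 0.34 (SD, n = 9) in NF and 7.79 ± 0.17 (n = 9) in FFab, a difference of 0.11 ± 0.13 (SE), and the medians, 7.78 and 7.77, differed by 0.00. NF rabbits ran from 7.52 to 8.37 and FFab rabbits from 7.58 to 8.09. NF rabbits lap170 (8.37), lap206 (8.34) and lap205 (8.24) were above all FFab rabbits, whereas the other 6 lay between 7.52 and 7.89, within the FFab range or below it. Rabbit lap170 was the highest NF rabbit in 7 of the 21 genes and rabbit lap206 in 6 (22.1% of all genes). Leaving out any of the 3 lowered the difference to 0.05, 0.05 and 0.07. By mean 18 of 21 genes were higher in NF, with a median gene difference of 0.13, and by median 13 were. NF was higher on 4 of 9 slides, with a median within-slide difference of -0.01.

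The macrophage genes did not move together. ITGAX (CD11c), an integrin of macrophages and dendritic cells, ran from 5.09 to 6.51 (median 5.93) in NF and from 4.90 to 5.94 (median 5.34) in FFab. It had the only unadjusted p under 0.05 of the list (0.49 ± 0.24, adjusted p = 0.9997), and it was 0.45 without rabbit lap170. CD86, a costimulatory ligand, differed by 0.38 ± 0.24 (0.25 without FFab rabbit lap201) and MERTK, a receptor for dying cells, by 0.35 ± 0.31. For MERTK, NF rabbit lap206 stood at 8.22 with the next NF rabbit at 6.67, and without it the difference was 0.15. The defining genes CD68, a lysosomal protein, and CSF1R, the receptor for the growth factor of macrophages, differed by 0.04 ± 0.12 and 0.04 ± 0.17, and CSF1R by -0.02 under scaling to the 75th percentile. On the other side, CD4, which rabbit T cells carry as well, differed by -0.66 ± 0.33. FFab rabbit lap201 stood alone at 8.73, and without it the difference was -0.29. MPEG1, a pore-forming protein, differed by -0.52 ± 0.56, but its 5 probes ran from -0.52 to 0.40, so its direction depends on the probe. FFab rabbit lap197 stood alone at 8.65 with the next FFab rabbit at 5.64, and without it the difference was -0.08. It was above background in 5 NF and 7 FFab rabbits. CD163 was not among the genes measured here. At day 35 the class I, class II and macrophage lists differed between NF and FFab by 0.08 ± 0.21, 0.27 ± 0.17 and 0.11 ± 0.12 (SE). The FF rabbits of day 49 stood at 13.50, 11.20 and 7.84 on these lists.

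Lists of other cell types and programs were set beside these 4, out of 40 lists computed, and only part of them are described. Other immune lists differed by 0.40 ± 0.30 (mast cell and eosinophil), 0.27 ± 0.18 (inflammatory cytokine and chemokine) and 0.22 ± 0.17 (dendritic cell). The neutrophil, germinal centre, plasma cell and IgA, and antimicrobial lists differed by 0.14 ± 0.24, 0.12 ± 0.23, 0.05 ± 0.19 and -0.03 ± 0.19. The cytotoxic lymphocyte list had a difference of 0.57 ± 0.24 (SE), with 8 of 8 measured genes (of 20) higher in NF by mean and NF higher on 7 of 9 slides. NF rabbits ran from 8.79 to 10.32 (median 9.48) and FFab rabbits from 7.94 to 9.68 (median 9.10). Leaving out 1 rabbit at a time kept it between 0.44, without FFab rabbit lap201, and 0.66. It was 0.50 without NF rabbit lap170 and 0.73 without the 3 rabbits lacking SLC10A2. IFNG, interferon gamma itself, ran from 3.92 to 6.85 (median 4.8) in NF and from 2.53 to 5.0 (median 4.64) in FFab, a difference of 1.01 ± 0.48 (limma, adjusted p = 0.9997). It was above background in 8 NF and 5 FFab rabbits, and the highest NF rabbits were lap170, lap206 and lap205. CCL4, a chemokine of activated lymphocytes and macrophages, differed by 0.73 ± 0.33, with NF rabbits lap170 (11.75) and lap205 (11.50) above the rest. The T cell list differed by 0.06 ± 0.15, with 12 of 16 genes higher by mean. It was -0.03 without FFab rabbit lap201 and 0.22 without the 3 rabbits lacking SLC10A2.

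The B cell list (9 of 18 measured) varied most within the groups, from 5.64 to 9.17 in NF and from 5.83 to 8.76 in FFab, with a difference of 0.53 ± 0.60. It was 0.35 without FFab rabbit lap201, 0.81 without NF rabbit lap189 and 0.18 without lap170 and lap201. In NF 6 rabbits stood at 7.97 or higher and 3 at 7.07 or lower, and in FFab 4 stood at 8.12 or higher and 5 at 6.74 or lower. MS4A1 (CD20) and CXCL13, the chemokine that attracts B cells to follicles, differed by 1.27 ± 1.01 and 0.99 ± 1.1, and the 3 probes of MS4A1 by 0.24 to 1.37. NF rabbits lap170 and lap205, the 2 highest on the interferon list, were also the 2 highest NF rabbits on the B cell list, and FFab rabbit lap201 the lowest FFab rabbit. This was not particular to B cell genes. The same 2 led NF on the cytotoxic lymphocyte, dendritic cell, plasma cell, inflammatory and goblet cell lists, but not on the T cell, neutrophil, germinal centre, antimicrobial or mast cell lists. Rabbit lap201 was also lowest of its group on the T cell, cytotoxic lymphocyte, dendritic cell, plasma cell, mast cell and inflammatory lists. It was not on the neutrophil, germinal centre or antimicrobial lists. The part of B cell genes in the interferon and class II values was not tested.

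Muscle and nerve genes leaned the other way. Of 14 smooth muscle genes 13 were lower in NF by mean, with a list difference of -0.15 ± 0.21, which was -0.04 without FFab rabbit lap201 and -0.31 without the 3 rabbits lacking SLC10A2. For striated muscle genes, of which 9 of 10 were lower by mean, the difference was -0.28 ± 0.16, and -0.17 without NF rabbit lap206. Of 19 collagen and matrix genes 14 were lower by mean (-0.09 ± 0.14), and of 13 genes of glia and neurons 11 (-0.11 ± 0.16). Without lap201 these list differences were -0.01 and -0.03, and without the 3 rabbits they were -0.27 and -0.31. The part of muscle in the differences of the immune lists was not tested.

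Stress and activation genes showed small differences with less spread. The immediate early list (12 of 20 measured) was 8.59 ± 0.33 (SD, n = 9) in NF and 8.32 ± 0.13 (n = 9) in FFab, a difference of 0.27 ± 0.12 (SE), with NF higher on 8 of 9 slides and 10 of 12 genes higher by mean. ATF3, a stress transcription factor, ran from 7.55 to 9.70 in NF and from 6.57 to 8.23 in FFab (0.97 ± 0.43, adjusted p = 0.9997). CCN1 differed by 0.57 ± 0.33. On the heat shock list all 8 measured genes (of 17) were higher in NF by mean, and the list differed by 0.15 ± 0.05. Its leave-one-out range was 0.13 to 0.18. FKBP4 and STIP1, cochaperones of HSP90, differed by 0.18 ± 0.08 and 0.22 ± 0.11. At day 35 these lists differed by 0.03 ± 0.15 and -0.05 ± 0.10. The ileal enterocyte list differed by 0.05 ± 0.35, by 0.30 without NF rabbit lap206, by -0.10 without FFab rabbit lap185 and by 0.01 without all 3 rabbits lacking SLC10A2.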

How the data were processed

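RNA of 57 rabbits had been hybridized to 1-colour (Cy3) Agilent arrays. The authors deposited the scanner files, whose processed signal is a background-subtracted intensity per spot, and a table of log2 normalized values, used here as an alternative. The submitters' notes name Feature Extraction 10.7.3.1 and the file headers 10.10.1.1. Spots flagged as outliers were left out, log2 intensities were averaged by probe and quantile normalized over 56 arrays (without the day 35 NF array that the study set aside). Probes were kept when well above background on 50% of their spots in 75% of the arrays of a group (31722 probes). Genes were named through RefSeq accessions, gene identifiers, the paper's tables and array descriptions, and read from the probe of median level (7974 genes). limma 3.58.1 in R 4.3.3 fitted 1 mean per group (6 groups), with the contrast NF minus FFab at day 49 and Benjamini-Hochberg adjustment. A call needed an adjusted p under 0.05 and a log2 difference beyond 0.5. List means are means of log2 levels per rabbit and were given no test. Only the limma fit was tested on simulated data, drawn independently for each gene. Normalization, probe choice, list means and single outlying arrays were not simulated. Members and lists were chosen with earlier results of these data known. Genes named are the 10 of smallest p in each direction (without genes that have only a LOC number), and the 5 largest differences in each of the 4 immune lists. Fixed landmarks and 2 genes of smallest p in each other list described are named as well. Exceptions were added after their values were seen: FABP1 and MOGAT2, the probes shown, and members named by role (PARP9, RIGI, IFIH1, CXCL10, CXCL11 and RLA-A2). The alternatives changed the arrays, background, scaling, filter, slide, weights and probe rule, and left out each rabbit. 1 landmark gene is not reported here. The number of arrays limits the precision.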

Additional observations from a re-analysis of the deposited data

Results flagged for a closer look

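In 19 of the groups of 9 rabbits examined (17.9%, over the 4 list means and named genes, in NF and in FFab), 1 rabbit stood apart from the other 8 by Dixon's criterion. Chance flags about 1 in 20 groups of unselected values. Most of the genes examined were chosen from these same data, and genes of a list are not independent. The share flagged therefore cannot be compared with that rate. The values below are log2 levels at day 49.

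NF rabbit lap170 stood apart at the top for the interferon list mean (12.04, next 10.36) and for NAMPT (11.09), IFIT2 (9.85), XAF1 (12.54), CTSS (14.30) and ISG15 (17.12). NF rabbit lap206 stood apart at the bottom for FABP6 (7.88, next 19.12) and SLC10A2 (2.35, next 11.94), and at the top for MERTK (8.22). NF rabbit lap188 was apart at the bottom for CIMIP4 (6.69).

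FFab rabbit lap201 was apart at the bottom for MRPL51 (12.99), RLA-I-like (12.71), PSMB9 (13.92), PSMB8 (11.01) and B2M (17.39), and at the top for CH25H (8.40) and CD4 (8.73). FFab rabbit lap196 was apart at the top for OPN1MW (10.65) and FFab rabbit lap197 for MPEG1 (8.65).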

How the results depend on the processing

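The count of 0 genes called held under every alternative but robust regression, which called 1 gene, ST3GAL4, a sialyltransferase (1.80, adjusted p = 0.00526, against 1.20 ± 0.47 in the limma fit without it, adjusted p = 0.9997). Leaving out each rabbit gave 0 to 0. At an unadjusted p under 0.05 the count moved from 147 to 283 with the authors' value table, 258 and 240 with slide as a fixed and a random block, 257 with robust regression and 260 without the 3 rabbits lacking SLC10A2, 156 of them lower in NF. It fell to 111 without NF lap170, and to 54 higher and 54 lower without NF lap205. List differences were not computed with array weights or robust regression. Under the alternatives that computed them, the 4 list differences kept their sign. They ran from 0.28 to 0.86 for interferon and from 0.06 to 0.25 for class I. For class II they ran from 0.05 to 0.23, and for macrophage genes from 0.00 to 0.17. Without 1 rabbit the 4 list differences ran from 0.42 to 0.82, 0.09 to 0.22, 0.08 to 0.30 and 0.05 to 0.15.

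Signs turned for 8 of the named genes refitted under each alternative, none of them called. RLA-A2, not among those, was -0.0055 without NF lap170 and FFab lap201. MPEG1 was 0.39 with the 18 arrays alone, 0.15 with normexp and 0.0555 with all probes averaged, and ran from -0.77 to -0.08 without 1 rabbit. CSF1R was -0.0167 with 75th percentile scaling and -0.0238 with array weights, and ran from -0.0604 to 0.15 without 1 rabbit. FABP6 was 0.20 with array weights, 0.057 with robust regression, 0.0393 without the 3 rabbits and -0.76 to 0.99 without 1. SLC10A2 was -0.11 without the 3 and -0.0592 to 2.15 without 1. Without 1 rabbit, CD68 ran from -0.0165 to 0.0696 and B2M from -0.0105 to 0.15. Without NF lap170 and FFab lap201, CTSS was -0.047 and MX1 -0.0786. These last alternatives, and that without the 3 rabbits, were chosen after seeing the data, and the causes were not tested. NF lap170 and FFab lap201 were the ends of the interferon list, so leaving them out could only lower its difference. No paired analysis by rabbit was possible because rabbit numbers are not shared between groups. Pairing by slide is the block given above. Genes near background, such as IFIT2, IFNG and NCAM2, are limited by signal.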
